A study of Mus musculus with 53 samples.

Results

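The arcuate nucleus (ARC) of wild-type (Nnat+/+) male mice was compared between a 45% high-fat diet (HFD) and standard chow, and every gene in the table was examined. This comparison used 8 of the 53 libraries of the series, 6 from HFD-fed mice (libraries 44 to 49) and 2 from chow-fed mice (libraries 33 and 34). All were adult C57BL/6 males without the Nnat deletion, and the ARC had been cut by laser from stained brain sections of mice 13 to 14 weeks old, with 1 library per labelled sample. Another chow library, 35, was left out because its total count was 271324, which was 5.78% of the median library. The study also holds ARC libraries of Nnat+/-p mice, which lack the expressed paternal copy of the imprinted gene Nnat, on chow (non-obese and obese) and on HFD, and libraries of the neighbouring paraventricular nucleus (PVN). HFD-fed mice formed a separate cohort that was moved from chow to HFD when young, so diet, cohort and time on the diet cannot be told apart. HFD-fed mice weighed 37.4 to 43.9 g and the chow-fed mice 31.4 and 33.5 g, so diet and body weight cannot be told apart either.

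The ARC lies at the base of the hypothalamus and senses leptin, insulin, ghrelin and nutrients. One population of its neurons makes NPY and AgRP, which promote feeding, and another makes POMC and CART peptides, which restrain it, and both act on melanocortin and other receptors in the PVN and elsewhere. The nucleus borders the ventromedial nucleus (VMH), the median eminence and the tanycytes that line the ventricle above it, and tissue cut from it also holds astrocytes, oligodendrocytes, microglia and vessels.

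Total counts were 3717069 and 3984257 in the chow libraries and 3592129 to 18058097 in the HFD libraries, with the highest in library 45. Nnat itself was at 235 to 311 CPM (read counts scaled to a library size of 1e+06) in chow and 224 to 481 in HFD libraries, against 0.268 to 4.72 in Nnat+/-p libraries, as the genotype labels require. The nuclear RNA Gm42418, whose locus shares sequence with ribosomal RNA genes, took 5.02% to 7.03% of counts in chow and 6.36% to 31.3% in HFD libraries, the highest being library 45. HFD library 44 carries the labelled weight of a Nnat+/-p PVN library, and Nnat+/-p HFD library 51 that of a wild-type PVN library, although Nnat was expressed in the first and near 0 in the second. Without these 2 libraries 44 genes were called (30 higher and 14 lower). All further levels are CPM scaled by the trimmed mean of M values (TMM), and a fold change is the log2 of HFD over chow with its standard error (SE). In bulk tissue, fewer cells of a type and less RNA per cell cannot be told apart.

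On HFD the wild-type ARC had more RNA for the neuropeptide genes Cartpt and Sst, the ARC transcription factor Tbx3, the leptin-responsive signal transducer Stat3 and the acute-phase protease inhibitor Serpina3n. It had less RNA for myelin genes (among them Mobp, Mbp and Mal), VMH genes (Fezf1, Cbln1, Nptx2), the cannabinoid receptor Cnr1 and 4 mitochondrially encoded respiratory chain subunits. Of 15753 genes tested, 182 (1.16%) were called at an adjusted p under 0.25, the threshold of the study, with 78 (0.495%) higher and 104 (0.66%) lower on HFD (edgeR's quasi-likelihood test, Benjamini-Hochberg adjustment, all 5 male ARC groups fitted together). Only 5 of them (0.0317% of tested genes) reached an adjusted p under 0.05, and 1346 (8.54%) had an unadjusted p under 0.05. The 5 were Serpina3n, Cartpt and Tbx3, which rose, and Sardh and Gm16638, which fell. Without HFD libraries 45 and 46, Sst, Stat3, Mal, Cbln1, mt-Nd2, mt-Nd5 and mt-Cytb were no longer called. The calls depended most on the 2 chow libraries, as given below. In all 78 genes called higher, every HFD library was above both chow libraries, and in 99 of the 104 called lower every HFD library was below both. Over all tested genes, 6.76% had every HFD library above both chow libraries and 7.38% had every one below. The called genes were picked by their p in these same libraries, so their separation is no added support. This holds too for called genes described below as without overlap. Of all tested genes, 8090 had a fold change above 0, and the median over all 15753 was 0.02 on the log2 scale.

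Cartpt, on chromosome 13 (99898489 to 99901091, minus strand, GRCm38), encodes the CART peptides. Its level was 30.0 and 31.6 CPM in the chow libraries, and 82.9 (lowest), 113 (median) and 155 CPM (highest) in the 6 HFD libraries. The groups were far apart, and the lowest HFD library was well above both chow libraries. The means were 30.8 ± 1.07 CPM (SD, n = 2) on chow and 116 ± 26.4 CPM (SD, n = 6) on HFD, a log2 fold change of 1.91 ± 0.33 (SE, adjusted p = 0.0143, edgeR's quasi-likelihood test). Tbx3, on chromosome 5 (119670669 to 119684724, plus strand), encodes a transcription factor of ARC neurons and tanycytes. It was at 5.85 and 12.8 CPM in chow libraries and at 31.2, 40.6 and 77.8 CPM (lowest, median, highest) in HFD libraries. No library of either diet lay within the range of the other, and the log2 fold change was 2.30 ± 0.41 (adjusted p = 0.0169).

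Serpina3n, on chromosome 12 (104406729 to 104414329, plus strand), encodes a secreted inhibitor of serine proteases that reactive astrocytes make and that leptin induces in hypothalamus. Its levels were 12.5 and 12.8 CPM on chow and 60.8, 73.7 and 152 CPM (lowest, median, highest) on HFD. This was the smallest adjusted p of the genes that rose, 0.00949, with a log2 fold change of 2.82 ± 0.47. Serpina3n is one of a cluster of similar genes, so its count may include or lose reads of a near copy. Sst, which encodes somatostatin, was at 41.5 and 49.6 CPM on chow and at 50.8, 100 and 215 CPM (lowest, median, highest) on HFD. The lowest HFD library was only just above the higher chow library, and the log2 fold change was 1.28 ± 0.35 (adjusted p = 0.19).

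These 4 genes were those called among 23 tested ARC feeding peptides and markers, all of them higher, against 0.495% of all genes. The fold change was above 0 for 21 of the 23, with a list median of 1.40 against 0.02 over all genes, and in 10 members (43.5%) every HFD library was above both chow libraries, against 6.76% of all genes. The best known feeding peptides passed or missed the threshold depending on the setting. Npy, the orexigenic peptide of AgRP neurons, was at 6.12 and 6.01 CPM on chow and 8.50, 17.7 and 88.8 CPM (lowest, median, highest) on HFD, with a log2 fold change of 2.20 ± 0.69 and an adjusted p of 0.263. All HFD libraries were above both chow libraries, and the highest, library 46, was far from the rest. DESeq2 called Npy (adjusted p = 0.109), and 9 of 21 alternative settings did in all, over which the adjusted p ran from 1.3187e-05 to 0.949. Pomc, the precursor of melanocortins, was at 27.1 and 24.8 CPM on chow and 26.4, 104 and 349 CPM on HFD (2.25 ± 0.75, adjusted p = 0.298), and the ranges overlapped. Pomc was called by DESeq2 (adjusted p = 0.1815) and in 5 of 21 alternative settings in all (adjusted p 7.204e-15 to 0.966). Agrp, which encodes an antagonist at melanocortin receptors, was at 1.064 and 2.504 CPM on chow and 2.59, 4.37 and 26.5 CPM on HFD (2.31 ± 1.05, adjusted p = 0.536). Agrp and Npy, which define the labelled nucleus, were thus low in both chow libraries.

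**Figure D1:**
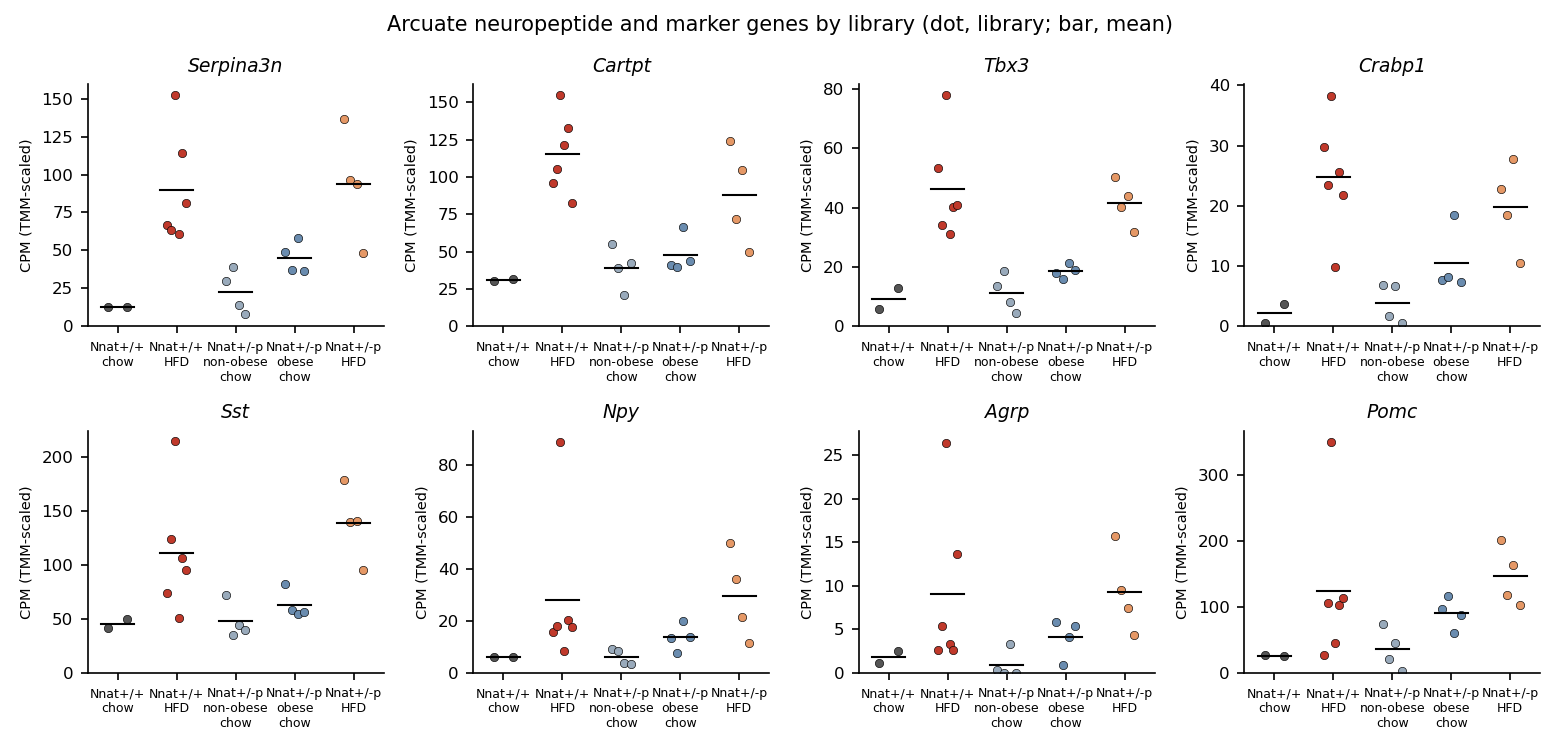
Level of 8 genes (CPM, TMM-scaled) in each ARC library of the 5 male groups, with dots for libraries and bars for group means. The 6 wild-type HFD libraries lie above both wild-type chow libraries for Serpina3n, Cartpt, Tbx3, Crabp1, Sst, Npy and Agrp, while for Pomc 1 HFD library, at 26.4 CPM, lies between them.

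Markers of the VMH, the neighbour of the ARC, were called in the other direction. Of 10 tested VMH markers, 3 fell and none rose (0.66% of all genes were called lower), all 10 had fold changes below 0, and the list median was -1.39. Fezf1, a zinc finger factor of VMH development, was at 29.8 and 47.8 CPM on chow and 0.786, 5.22 and 19.3 CPM (lowest, median, highest) on HFD, and the groups did not overlap (-2.25 ± 0.63, adjusted p = 0.19). Cbln1, a synapse organiser, was at 54.5 and 76.1 CPM on chow and at 4.98 to 36.3 CPM on HFD (-1.70, adjusted p = 0.24). Nptx2, a neuronal pentraxin that clusters glutamate receptors, was at 25.3 and 46.8 CPM on chow and 6.32 to 25.4 CPM on HFD, where the highest HFD library just overlapped the lower chow library (-1.48, adjusted p = 0.233). Nr5a1, the defining VMH factor, was at 17.0 and 33.6 CPM on chow and 0.377, 4.35 and 17.8 CPM on HFD, was not called (-1.86, adjusted p = 0.496) and overlapped between groups.

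Summed over the lists, ARC markers were at 332 and 367 CPM in the chow libraries and 582, 780 and 1499 CPM (lowest, median, highest) in the HFD libraries. VMH markers were at 483 and 751 CPM on chow and 105, 258 and 463 CPM on HFD. Neither pair of ranges overlapped. The HFD library with the highest ARC sum, library 46, had the lowest VMH sum. The 2 sums thus moved with diet, as did the neuronal genes called here. The part that the position or extent of the cut tissue had in these results was not tested. Lateral hypothalamic peptides, from the other flank, had no called member among 5 (median -1.20). The largest of them by fold, Pmch, was at 96.3 and 29.6 CPM on chow and 0 to 36.8 CPM on HFD. None of 6 PVN markers was called (median 0.60).

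**Figure D2:**
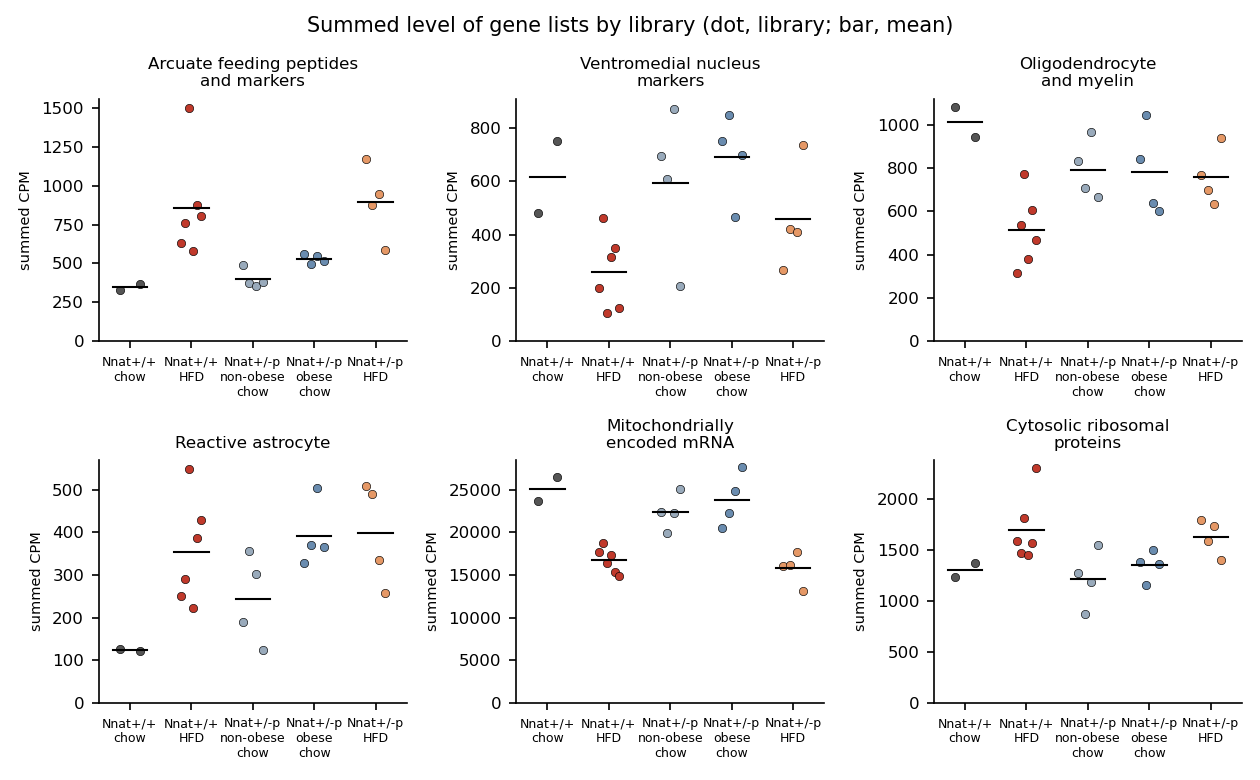
Summed CPM of 6 gene lists in each male ARC library, with dots for libraries and bars for group means. In wild-type mice the HFD libraries lie above chow for ARC feeding markers (582 to 1499 against 332 and 367 CPM) and below for VMH markers, myelin genes and mitochondrially encoded mRNA.

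Of 26 leptin and insulin signalling genes, 2 rose, against 0.495% of all genes, and none fell. They were Stat3, the transcription factor that the leptin receptor activates, and Irs4, an insulin receptor substrate of the hypothalamus. Stat3 was at 37.5 and 40.1 CPM on chow and at 56.3, 69.3 and 83.8 CPM (lowest, median, highest) on HFD (0.84 ± 0.21, adjusted p = 0.142). Irs4 was at 83.8 and 126 CPM on chow and 172, 211 and 344 CPM on HFD (1.14 ± 0.24, adjusted p = 0.0604). For both genes all HFD libraries were above the chow libraries, although the list median was 0.04, close to that of all genes. Lepr, the leptin receptor, was at 7.18 and 2.75 CPM on chow and 6.19 to 244 CPM on HFD, with the highest in library 44, and missed the threshold (3.33, adjusted p = 0.347). Lepr was called by DESeq2 (adjusted p = 0.133) and in 4 of 21 alternative settings in all (adjusted p 1.2413e-12 to 0.94), and its fold change ran from 1.41 to 4.16 with single libraries left out. Insr, the insulin receptor, had a log2 fold change of -0.03 (adjusted p = 0.993), and Socs3, the feedback inhibitor of leptin signalling, of 0.64 (adjusted p = 0.901).

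Among 20 appetite and metabolic receptors, 1 rose and 1 fell, where 0.495% of all genes were called higher and 0.66% lower. The list median was 0.21, against 0.02 over all genes. Npy2r, the presynaptic receptor for NPY and PYY, was at 7.98 and 9.52 CPM on chow and at 18.1, 30.5 and 47.7 CPM (lowest, median, highest) on HFD, without overlap (1.90 ± 0.44, adjusted p = 0.109). Cnr1, the CB1 cannabinoid receptor, was at 110 and 115 CPM on chow and 16.2, 41.6 and 76.6 CPM on HFD, also without overlap (-1.39 ± 0.33, adjusted p = 0.123). The receptors for ghrelin (Ghsr, 1.05, adjusted p = 0.675), GLP-1 (Glp1r, 2.15, adjusted p = 0.526) and melanocortins (Mc3r, 0.29, adjusted p = 0.95; Mc4r, -0.20, adjusted p = 0.981) were not called. Of 13 prohormone processing genes only Pcsk1, the convertase that cleaves POMC and other precursors, was called, against 0.495% of all genes called higher. It rose from 30.3 and 34.3 CPM to 42.5 to 69.4 CPM (0.76, adjusted p = 0.225). Vgf, a secreted neuropeptide precursor, missed the threshold (0.84, adjusted p = 0.317) but was called by DESeq2 (adjusted p = 0.11) and in 7 of 21 alternative settings in all (adjusted p 0.0409 to 0.971). Nnat, the gene deleted in the other genotype of the study, was at 232 and 310 CPM on chow and 278 to 480 CPM on HFD and was not called (0.56, adjusted p = 0.626).

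The 250 bases before the start of Cartpt, Sst and Pcsk1 hold the cAMP response element TGACGTCA, which reads the same on both strands and is bound by CREB. They are shown because these are the peptide and processing genes among those that rose, and they were chosen after their values were seen. Capitals mark the element in 30 bases of RefSeq promoter sequence (GRCm38.p6), written 5′ to 3′ on the strand of the gene, at chr13:99900777-99900806 (minus strand) for Cartpt, chr16:23890874-23890903 (minus strand) for Sst and chr13:75089768-75089797 (plus strand) for Pcsk1.
Cartpt: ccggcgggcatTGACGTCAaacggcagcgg
Sst: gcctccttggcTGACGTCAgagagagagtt
Pcsk1: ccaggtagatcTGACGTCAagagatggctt
The element begins 112 bases before the start in Cartpt, 48 in Sst and 78 in Pcsk1. Of the 40 genes called higher that matched a promoter, 3 (7.5%) held it, against 1 of 64 called lower (1.56%), 309 of 11306 tested genes (2.73%) and 439 of all 27025 promoters (1.62%). The motif TTCNNNGAA, which STAT factors bind, was in the promoters of 5 of the 40 (12.5%) and 5 of the 64 (7.81%), against 5.74% of tested genes and 7.18% of all promoters. These matches are counts of letters and say nothing of binding.

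Other transcripts that rose with the smallest p included Crabp1, which encodes a retinoic acid binding protein of a group of ARC neurons. It was at 0.532 and 3.76 CPM on chow and at 9.79, 24.5 and 38.3 CPM (lowest, median, highest) on HFD (3.49 ± 0.73, adjusted p = 0.0604). Plagl1, an imprinted zinc finger gene, was at 52.1 and 32.1 CPM on chow and 80.8 to 169 CPM on HFD (1.36, adjusted p = 0.0604). With Dlk1, which encodes a Notch-related membrane protein (94.7 and 71.4 CPM against 110 to 301 CPM, 1.03, adjusted p = 0.19), it made 2 of 21 tested imprinted genes that rose, against 0.495% of all genes, and none fell. Crtac1, which encodes a secreted matrix protein (1.62, adjusted p = 0.0568), Cngb1, a cyclic nucleotide-gated channel subunit (5.05 and 8.27 CPM against 19.2 to 23.3 CPM, 1.71), Clk1, a kinase of splicing factors (1.54, adjusted p = 0.111), and Bbx, a DNA-binding protein (1.02, adjusted p = 0.123), also rose without overlap. The class I histocompatibility gene H2-D1, whose reads near copies share, was at 9.57 and 10.8 CPM on chow and 22.1 to 34.8 CPM on HFD (1.44).

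Of 11 reactive astrocyte genes tested, 4 rose (Serpina3n, Gfap, Cd44 and Stat3, where Serpina3n and Stat3 also count in the lists above) and none fell, against 0.495% of all genes called higher, and the list median was 0.84. Gfap, the astrocyte intermediate filament, was at 32.2 and 28.8 CPM on chow and 47.1, 99.2 and 211 CPM (lowest, median, highest) on HFD, without overlap (1.90 ± 0.56, adjusted p = 0.231). Cd44, a hyaluronan receptor, was at 2.13 and 3.51 CPM on chow and at 6.04 to 20.9 CPM on HFD (2.08, adjusted p = 0.219). In 6 of the 11 (54.5%) every HFD library was above both chow libraries, against 6.76% of all genes. The summed list was at 127 and 121 CPM on chow and 222, 339 and 548 CPM on HFD. In Nnat+/-p libraries the sum was at 124 to 503 CPM on chow and 257 to 509 CPM on HFD, so those ranges overlapped. The list median there was 0.36 against non-obese and 0.001 against obese chow libraries. Homeostatic astrocyte genes did not rise with them: none of 15 was called higher, and the list median was -0.31. The 1 called lower, against 0.66% of all genes, was Agt, which encodes angiotensinogen. It fell from 149 and 120 CPM to 52.7 to 100 CPM (-0.81, adjusted p = 0.178). Of 12 tanycyte and ependymal genes, only Col23a1, a membrane collagen, was called, against 0.495% of all genes called higher. Its level rose from 1.06 and 2.75 CPM to 7.21 to 25.5 CPM (2.94, adjusted p = 0.133).

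No microglial gene was called among 16 (median 0.24), and neither was any of 12 inflammatory signalling genes (median -0.21). The abundant microglial genes Ctss and Lgmn, both of lysosomes, had log2 fold changes of 0.55 and 0.43 (adjusted p = 0.499 and 0.651). Among inflammatory genes Il6st, the shared receptor subunit of the interleukin 6 family, had the value 0.62 (adjusted p = 0.347). Endothelial genes (15 tested, median -0.01), mural genes (13), blood genes (6), oligodendrocyte precursors (7) and pars tuberalis or pituitary genes (6) had no call.

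Of 17 oligodendrocyte and myelin genes tested, 4 were called lower, against 0.66% of all genes, and none higher. Fold changes were below 0 for 15, and the median was -0.87. In 11 (64.7%) every HFD library was below both chow libraries, against 7.38% of all genes. Mobp, a myelin structural protein, was at 145 and 118 CPM on chow and at 32.1, 57.1 and 79.6 CPM (lowest, median, highest) on HFD, with means of 132 ± 19.4 CPM (SD, n = 2) and 55.2 ± 20.4 CPM (SD, n = 6) and a log2 fold change of -1.25 ± 0.27 (adjusted p = 0.0604). Mbp, the basic protein that compacts myelin, was at 411 and 328 CPM on chow and 118, 170 and 255 CPM on HFD (-1.09 ± 0.24, adjusted p = 0.0724). The highest HFD library was below the lower chow library for both genes. Mal, a myelin proteolipid, was at 59.8 and 50.8 CPM against 21.5 to 38.9 CPM (-0.91, adjusted p = 0.194). Cnp and Mag, 2 further myelin proteins, were not called (-0.64 and -0.91, adjusted p = 0.434 and 0.594). Nkx2-2, a homeodomain factor of oligodendrocyte and hypothalamic development, was at 20.7 and 17.0 CPM on chow and 3.58 to 8.25 CPM on HFD (-1.88, adjusted p = 0.102), and Gpr37, a receptor of myelinating cells, also fell (-1.12, adjusted p = 0.123). The myelin sum was at 1082 and 945 CPM on chow and 316, 502 and 772 CPM on HFD. How much white matter each cut held was not tested.

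**Figure D3:**
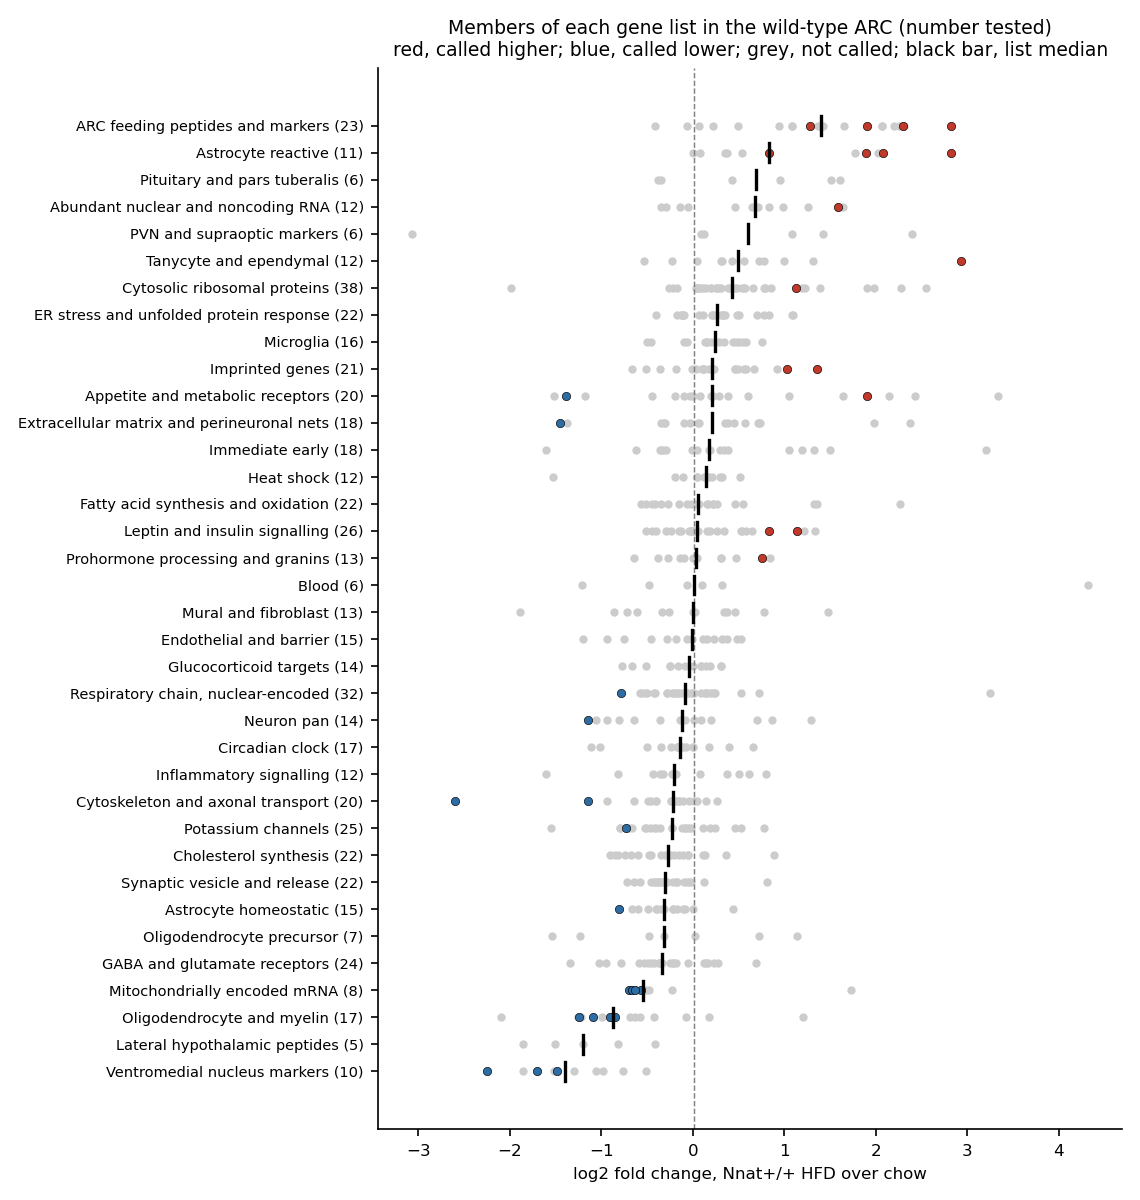
Log2 fold change of each member of every gene list (wild-type HFD over chow), with called members in red (higher) or blue (lower), others in grey, list medians as black bars and the median of all genes as a dashed line. ARC feeding markers (median 1.40) and VMH markers (median -1.39) lie at the opposite ends.

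Of 8 mitochondrially encoded mRNAs tested, 4 fell, against 0.66% of all genes, none rose, and the median was -0.54. mt-Nd4, a subunit of complex I, was at 2115 and 2590 CPM on chow and 1153 to 1702 CPM on HFD (-0.66 ± 0.17, adjusted p = 0.144), and mt-Cytb, of complex III, was at 6259 and 7265 CPM against 3477 to 4877 CPM (-0.64, adjusted p = 0.19). mt-Nd2 (2938 and 3358 CPM against 1490 to 2339 CPM, -0.70, adjusted p = 0.193) and mt-Nd5 (-0.57, adjusted p = 0.211) fell too. No HFD library of these 3 genes with printed levels reached the lower chow library. The share of counts from all mitochondrially encoded genes, with their ribosomal RNAs, was 39.7% and 42.5% on chow and 28.7% to 48.1% on HFD, so the ranges of the whole class overlapped. Nuclear-encoded subunits had a median of -0.09 over 32 tested, and of them Ndufa9, of complex I, fell (46.8 and 51.3 CPM against 21.4 to 37.7 CPM, -0.79, adjusted p = 0.202).

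Calls in the neuronal and synaptic lists were few in number but all lower, where 0.66% of all genes were called lower. Of 14 general neuronal genes Nefl, the light neurofilament, fell (170 and 239 CPM against 32.6 to 150 CPM, -1.15, adjusted p = 0.231). Nefl also counts in the cytoskeleton list of 20, where the other called gene was Kif21a, a kinesin, at 244 and 2488 CPM on chow and 146 to 288 CPM on HFD (-2.60, adjusted p = 0.178). That fall rested on 1 chow library, 34, and the other chow library lay within the HFD range. Of 25 potassium and related channels the pacemaker subunit Hcn2 fell (53.2 and 42.6 CPM against 25.1 to 36.2 CPM, -0.73, adjusted p = 0.234), and of 18 matrix genes Hapln4, a link protein of perineuronal nets, fell (-1.45, adjusted p = 0.234). Shank1, a postsynaptic scaffold, was at 227 and 290 CPM on chow and 81.8 to 193 CPM on HFD (-1.04, adjusted p = 0.112). Rnd2, a small GTPase (-1.08, adjusted p = 0.109), Plcxd2 (-1.34, adjusted p = 0.11) and the noncoding RNA Sox2ot (-1.44, adjusted p = 0.11) were also among the 15 lower genes of smallest p. None of 24 GABA and glutamate receptor genes (median -0.34), of 22 synaptic vesicle genes (median -0.31) or of 18 immediate early genes (median 0.18) was called. Even so, in 6 of the 24 receptor genes (25%) every HFD library was below both chow libraries, against 7.38% of all genes. Only 2 of the 22 synaptic vesicle genes had a fold change above 0.

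Several genes that fell with small p were in none of the lists. Sardh, sarcosine dehydrogenase of mitochondrial one-carbon metabolism, was at 62.2 and 23.5 CPM on chow and at 3.26, 4.11 and 6.57 CPM (lowest, median, highest) on HFD. The chow libraries differed from each other but both were above all HFD libraries, with means of 42.9 ± 27.4 CPM (SD, n = 2) and 4.41 ± 1.19 CPM (SD, n = 6) and a log2 fold change of -3.26 ± 0.52 (adjusted p = 0.00949). Gm16638, annotated as an antisense transcript, was at 86.4 and 28.6 CPM on chow and 3.14 to 8.12 CPM on HFD (-3.61 ± 0.66, adjusted p = 0.0182). How the counting treated strand is not given in the sources used here, so its reads may include those of an overlapping gene. Alx4, a homeobox gene, was at 16.2 and 3.51 CPM on chow and 0.0764 to 1.51 CPM on HFD (adjusted p = 0.0604). Fam83d, a spindle protein gene, was at 9.04 and 4.76 CPM against 0 to 0.574 CPM (adjusted p = 0.0628), and the predicted gene Gm47791 at 3.46 and 4.51 CPM against 0 to 0.185 CPM (adjusted p = 0.0604).

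Small structured RNAs took up a large share of the genes that rose. Of 331 tested, 29 (8.76%) were called higher, against 46 of 13799 protein-coding genes (0.333%), and their median log2 fold change was 2.29. The 29 were 13 small nucleolar RNAs (1.92 to 3.56), 10 small nuclear RNAs of splicing and related complexes (2.31 to 5.50), 4 small Cajal body RNAs (1.36 to 1.94), the ribosomal RNA gene CT010467.1 (1.70, adjusted p = 0.0604) and Rpph1, the RNA of RNase P (1.58, adjusted p = 0.0671). The predicted small RNA gene Gm24265 (2.36, adjusted p = 0.123) was the one such gene among the 15 of smallest p besides these last 2. In all, these classes took 4.83% and 5.30% of counts on chow and 5.23% to 7.10% on HFD. Many have near-identical copies that could share reads, and the length of RNA retained in each library was not tested. Gm42418, at 1.64 (adjusted p = 0.533), was not called. Without small structured RNAs in the fit, 118 genes were called (47 higher and 71 lower).

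Pathways of protein and lipid metabolism had few or no calls. Of 38 cytosolic ribosomal protein genes 34 had fold changes above 0 (median 0.42). Only Rps14 was called, against 0.495% of all genes called higher. It rose from 39.6 and 52.1 CPM to 63.6 to 144 CPM (1.13, adjusted p = 0.212). None of 22 genes of endoplasmic reticulum stress (median 0.27), 12 of heat shock, 22 of cholesterol synthesis (median -0.27), 22 of fatty acid metabolism (median 0.06), 14 glucocorticoid targets or 17 clock genes (median -0.14) was called. Hspa5, the chaperone BiP, had a log2 fold change of 0.50 (adjusted p = 0.419), Hmgcs1, of cholesterol synthesis, of -0.27 (adjusted p = 0.766), and the desaturases Scd1 and Scd2 of -0.51 and -0.44 (adjusted p = 0.374 and 0.473).

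The same diet comparison in Nnat+/-p mice shares no library with the wild-type comparison. Of the 78 genes that rose in wild-type mice, 75 (96.2%) had a fold change above 0 against non-obese Nnat+/-p chow libraries and 73 (93.6%) against obese ones, and 50 and 32 of them were called higher there. Small structured RNAs, 29 of the 78, made up 27 of the 50 and 24 of the 32, and the other 49 genes had 46 and 44 fold changes above 0 and 23 and 8 calls. For the 104 that fell, 94 (90.4%) and 95 (91.3%) had a fold change below 0, and 14 and 10 were called lower. Over all tested genes the sign was shared by 58.6% and 57.5%, and 385 (2.44%) and 200 (1.27%) of them were called in Nnat+/-p mice, 1.74% and 1.06% higher and 0.705% and 0.209% lower. The 78 had medians of 1.71 in wild-type mice, 1.14 against non-obese and 0.83 against obese Nnat+/-p mice, and the 104 had -1.14, -0.42 and -0.41.

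Cartpt rose against non-obese Nnat+/-p mice (1.16, adjusted p = 0.039) and against obese ones (0.88, adjusted p = 0.19). Tbx3 rose by 2.00 (adjusted p = 0.0027) and 1.16 (adjusted p = 0.13), and Sst by 1.52 (adjusted p = 0.011) and 1.14 (adjusted p = 0.11). The ARC feeding list had medians of 1.17 and 0.88 there. Sardh fell by 2.09 (adjusted p = 0.073) and 3.06 (adjusted p = 0.0077). Myelin genes had values near 0 in Nnat+/-p mice, with list medians of -0.06 and -0.07, -0.13 and -0.17 for Mobp and -0.18 and -0.07 for Mbp. Gfap had 0.54 and -0.60. The test of the difference between genotypes called 2 genes of 15753 (0.0127%), Kif21a (-5.30 ± 0.99, adjusted p = 0.129) and the predicted gene Gm30806 (adjusted p = 0.135), with 614 (3.9%) at an unadjusted p under 0.05, and no myelin or astrocyte gene was among the called. Each of those 2 genes rested on single libraries: Kif21a was at 2488 CPM in wild-type chow library 34 and 5990 CPM in Nnat+/-p HFD library 51, and Gm30806 was at 68.1 CPM in library 34, at 160 CPM in 1 Nnat+/-p HFD library and at 0 in every wild-type HFD library. DESeq2 called 0 differences by genotype, with 731 genes at an unadjusted p under 0.05.

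**Figure D4:**
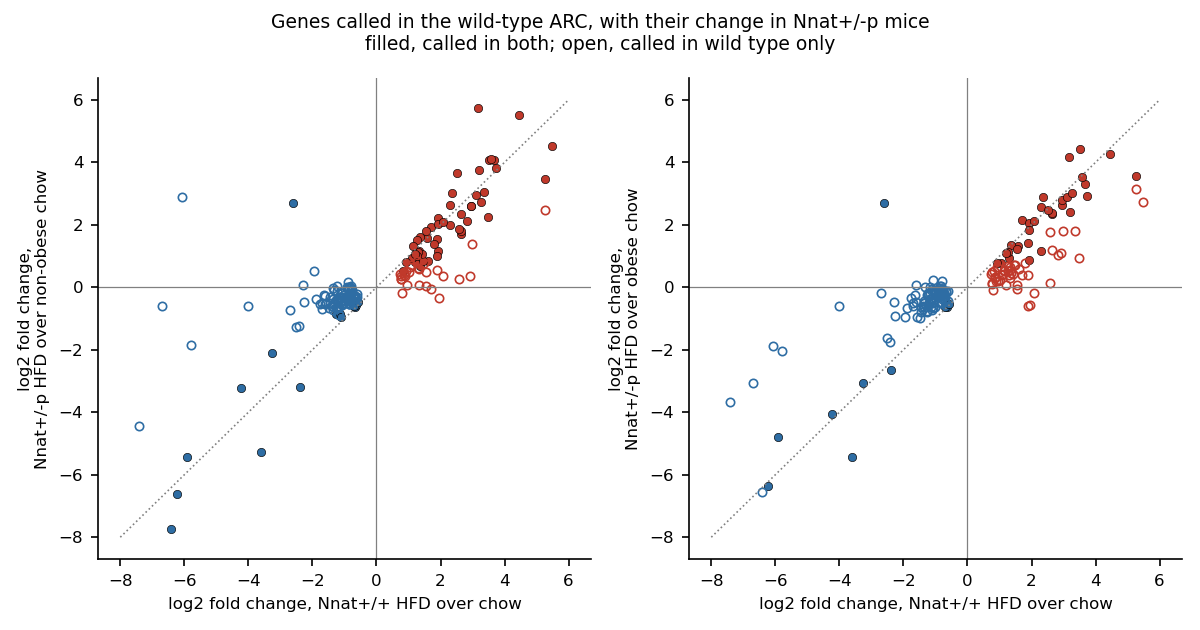
Log2 fold change on HFD of the genes called in wild-type mice (x axis) against their change in Nnat+/-p mice (y axis), over non-obese (left) and obese (right) chow libraries, with filled points called in both and open points called in wild-type mice only. Gm30806, at -10.50 and 10.69, is left out, and the dotted line marks equal change.

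The PVN of wild-type males, measured in 9 libraries (6 HFD and 3 chow), showed whether a change was also seen outside the ARC. In a joint fit of both nuclei 1315 of 17159 genes (7.66%) were called in the PVN, 2.93% higher and 4.74% lower. Of the 78 genes that rose in the ARC 63 had a PVN fold change above 0, and 22 were called there, 20 of them higher. Of the 103 lower ones tested in the PVN 88 had a fold change below 0 and 20 fell. The share of all tested genes with the same sign in both nuclei was not examined. The nuclei also share mice by labelled weight, as given below. Sardh fell in the PVN by 5.06 (adjusted p = 2.7e-08) and Gm16638 by 5.30 on the log2 scale. The difference between nuclei was called for 8 genes (0.0466%, with 1271 or 7.41% at an unadjusted p under 0.05). Labelled weights match 7 mice across the 2 nuclei, and with a replicate block for these mice 591 genes were called, while 169 were called without PVN library 15 and no block. More positive in the ARC were 6 (0.035%), among them Tbx3 (3.64 ± 0.69, adjusted p = 0.112), Crabp1 (6.96 ± 1.34, adjusted p = 0.112) and Slc6a3, the dopamine transporter (6.38 ± 1.32, adjusted p = 0.178). Part of each difference was a fall in the PVN, by -1.32, -3.45 and -4.29 (adjusted p = 0.142, 0.0481 and 0.00481, edgeR's quasi-likelihood test). Slc6a3 was not called in the ARC itself (2.07, adjusted p = 0.643). More negative in the ARC were 2 (0.0117%), Kbtbd8, a ubiquitin ligase adaptor, and Kif21a. Kbtbd8 differed by -4.28 ± 0.82 (adjusted p = 0.112, with a PVN value of 4.47). Kif21a differed by -2.67 ± 0.53 (adjusted p = 0.15), a value that rested on ARC chow library 34, as given above. PVN chow library 15 held ARC genes: Tbx3 was at 27.2 CPM there (at most 7.74 in the other PVN chow libraries), Crabp1 at 15.1 (at most 0.368) and Slc6a3 at 15.3 (at most 4.38). In the same fit, ARC chow libraries 33 and 34 were both lower than library 15 for these genes. They were at 6.35 and 14.0 CPM for Tbx3, 0.577 and 4.11 for Crabp1 and 2.02 and 0.548 for Slc6a3. How much ARC tissue the 2 ARC chow libraries held was not tested. Without library 15, Tbx3 differed by 2.37 and Crabp1 by 2.35, and Crabp1 was no longer called (adjusted p = 0.597).

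The calls depended on single libraries, chow libraries most of all. Without HFD libraries 45 and 46 the count was 69 (27 higher and 42 lower), of which 65 were among the 182, with 253 without library 45 alone and 50 without library 46 alone. Serpina3n, Cartpt and Tbx3 were still called without both (adjusted p = 0.0175, 0.0199 and 0.0199), as were Mobp (0.0199), Mbp (0.0336), Cnr1 (0.0306) and Fezf1 (0.133). Sst (adjusted p = 0.405), Stat3 (0.314), Gfap (0.352), Cd44 (0.367), Pcsk1 (0.367), Agt (0.273), Mal (0.273) and Cbln1 (0.272) were not. By list, 3 ARC feeding genes, 2 VMH genes, 3 myelin genes, 1 reactive astrocyte gene and 1 mitochondrially encoded gene were called without both. Without chow library 33 only 3 genes were called, and without chow library 34 only 12, Serpina3n, Cartpt, Tbx3 and Sardh among the 12. Without library 33, Serpina3n, Cartpt and Tbx3 had adjusted p = 0.261, 0.332 and 0.555.

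**Figure D5:**
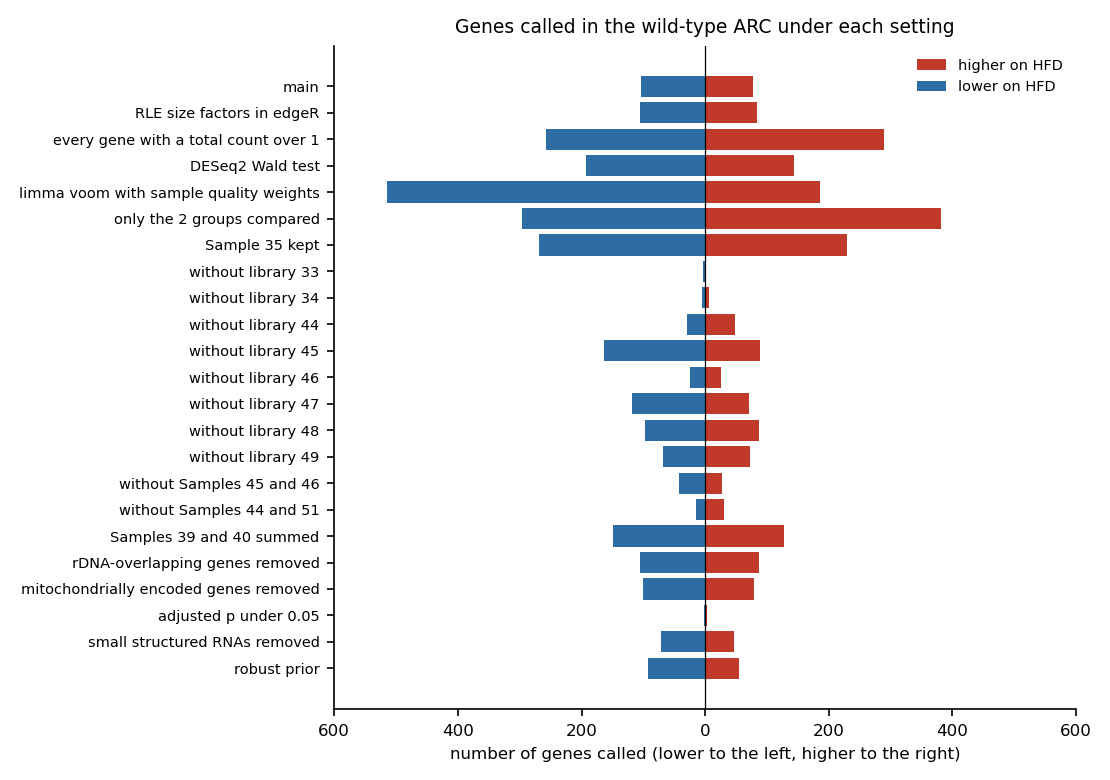
Number of genes called in the wild-type ARC under each setting, with lower genes to the left and higher genes to the right of 0. The count ranges from 3 without library 33 to 700 with limma voom and sample quality weights, beside 182 as reported.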

How the data were processed

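RNA was from laser-captured male ARC (and, for 1 comparison, PVN), prepared as total RNA with a stranded low-input kit and read as single-end reads. The values are gene-level read counts deposited by the authors as whole numbers without normalization. The submitters' processing notes name STAR 2.5.0a and GRCm38. The counting tool and strand setting are not given in the sources used here. The table held 53379 genes, of which 53274 identifiers matched a symbol.

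Counts were analysed with edgeR 4.0.16 in R 4.3.3 (filterByExpr, minimum count 10, TMM factors, quasi-likelihood test, Benjamini-Hochberg adjustment) over 20 ARC libraries in 5 groups, which share 1 estimate of spread. Genes were called at an adjusted p under 0.25, as in the study, which used DESeq2. The nucleus comparison fitted 17 wild-type libraries. DESeq2 1.42.0 and limma 3.58.1 served as alternatives. Code was tested on simulated data. Symbols, coordinates and classes came from GENCODE annotation of GRCm38, and promoters from RefSeq.

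Members, gene lists and tests were chosen with earlier results of these data known. Named genes were the 15 of smallest p in each direction, every called gene of the lists, a set of feeding, leptin and checking genes, and, for lists without a call, some of their most abundant members. A few genes that this rule names are not reported here. Labels give each ARC library a number of its own and do not say that libraries are separate mice beyond their weights. Library 44 carries the weight of a Nnat+/-p PVN library, library 51 that of a wild-type PVN library, and libraries 39 and 40 share 1 weight. Counts have no molecular identifiers, so their depth bounds counting error only.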

Additional observations from a re-analysis of the deposited data

Results flagged for a closer look

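Within groups of 4 or 6 libraries, 109 sets of values were examined by Dixon's criterion for 1 value far from the rest, and 15 met it. The criterion's rate of about 1 in 20 holds for normal values in separate sets. These sets were mostly untransformed CPM and partly overlapped, since Npy and Pomc also count in the ARC sum. The 15 therefore cannot be set against that rate. The 15 outlying values fell mostly in wild-type HFD libraries 46 and 49, with 5 each.

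In library 46 the high values were Npy at 88.8 CPM, Pomc at 348.7 CPM, Plagl1 at 168.7 CPM, Gm16638 at 8.121 CPM and the ARC feeding list at 1499 summed CPM, and the Pomc, Npy and ARC sums of the other 5 HFD libraries were all lower. In library 49 they were the lowest endothelial sum (255.8 CPM) and heat shock sum (1517 CPM) and the highest blood sum (39.06 CPM), share of mitochondrially encoded counts (48.05%) and Fam83d (0.5744 CPM). Library 45 had the highest total, 18058097 counts, and the highest Nkx2-2, 8.247 CPM. Library 44 had Lepr at 244.2 CPM and library 47 Gm47791 at 0.1848 CPM. Nnat+/-p HFD library 51 had Kif21a at 5990 CPM.

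The diet effect differed between wild-type and Nnat+/-p mice for Kif21a, by -5.303 on the log2 scale, and for Gm30806, by a fitted -21.19. The Gm30806 value depends on the prior count and is no bound, since most libraries are at 0. Both differences rested on single libraries, as given above. For Kif21a, wild-type chow library 34 was at 2488 CPM and the other chow library, 33, at 244. Between the ARC and the PVN the diet effect differed for Tbx3 (3.638), Crabp1 (6.964), Slc6a3 (6.379), Kbtbd8 (-4.279) and Kif21a (-2.665). Here too the Kif21a value rested on library 34, and library 15 of the PVN holds ARC genes, as given above.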

How the results depend on the processing

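The number of genes called in the wild-type ARC (182) was 547 with every gene of total count over 1 tested, 336 with DESeq2 (144 higher and 192 lower of 5174 genes given an adjusted p, 123 shared), 700 with limma voom and quality weights (186 higher and 514 lower), 678 with only the 2 groups in the fit (382 and 296) and 499 with library 35 kept, where the median of all genes was 0.18. It was 69 without libraries 45 and 46, 44 without libraries 44 and 51, 276 with libraries 39 and 40 summed, 118 without small structured RNAs and 5 at an adjusted p under 0.05. Leaving out 1 library at a time gave 3 to 253: without library 33, 34, 44, 45 or 46 it was 3, 12, 78, 253 and 50. The cause of these shifts was not tested. RLE size factors (189), removal of ribosomal DNA genes (193) or mitochondrial genes (180) and a robust prior (147) moved it by less than 1.5 times.

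For Nnat+/-p mice the 385 calls against non-obese chow became 642 with DESeq2, 43 at 0.05 and 42 to 759 without 1 library, and the 200 against obese chow became 371, 18 and 13 to 544. The 2 differences by genotype became 0 with DESeq2, at 0.05 and with libraries 39 and 40 summed, and 0 to 2 without 1 library. The 8 differences by nucleus became 51 with DESeq2, 0 at 0.05, 169 without PVN library 15, 320 without libraries 15 and 24, and 1 to 9 without 1 ARC library. With a replicate block for mice matched across nuclei by labelled weight (7 pairs), 591 were called. Library numbers pair no samples within the ARC, so no block was fitted there.

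The sign of Insr, which was not called, turned with library 35 kept (0.38), without libraries 45 and 46 (0.082) and over single libraries left out (-0.36 to 0.45), and that of Mc4r did so likewise (0.11, 0.19 and -0.66 to 0.21). The fold changes of named genes over all settings were counted together with the called differences by genotype and nucleus. Of these values, 1154 kept their direction and side of the threshold, 252 lost and 30 gained a call, and 11 turned sign. The chow group holds 2 libraries of 3717069 and 3984257 counts, and which of number and depth limits the comparison more was not tested.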

Other observations

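The genes below were chosen after their values were seen. Among other called genes that rose in the wild-type ARC were Ghr, the growth hormone receptor (9.04 and 16.3 CPM on chow against 22.1, 28.1 and 37.7 CPM as lowest, median and highest on HFD, log2 fold change 1.21 ± 0.31, adjusted p = 0.142 by edgeR's quasi-likelihood test), and Asb4, a ubiquitin ligase adaptor of ARC neurons (40.4 and 26.5 CPM against 72.6 to 116 CPM, 1.32). Bmp3, a secreted growth factor (4.52 and 1.503 CPM against 11.7 to 33.1 CPM, 2.63), and Scn9a, a sodium channel subunit (52.4 and 30.1 CPM against 99.3 to 136 CPM, 1.49), rose too. In all 4 the HFD libraries were above both chow libraries, as in every gene called higher.

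Among those that fell were Nr2f2, a nuclear receptor of hypothalamic patterning (83.2 and 115 CPM against 6.13, 21.2 and 66.6 CPM, -1.76 ± 0.43, adjusted p = 0.137), and the following 3 genes. Nptx1, a neuronal pentraxin, was at 81.6 and 108 CPM on chow and 16.5 to 59.7 CPM on HFD (-1.37), Ddn, a dendritic protein, at 32.2 and 41.3 CPM against 6.13 to 23.3 CPM (-1.34), and Hpca, the calcium sensor hippocalcin, at 36.2 and 33.1 CPM against 6.29 to 27.9 CPM (-1.20). In Nnat+/-p mice these 3 genes had values of -0.53 to -0.08 against non-obese and -0.51 to 0.01 against obese chow libraries. None of these differences between genotypes was called.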
